A study of Homo sapiens with 10 samples.

Results

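NRF2, encoded by NFE2L2, its repressor KEAP1 and 8 genes of thiol redox defence were followed in MCF10A cells on gels of different stiffness. The 10 genes, NFE2L2, KEAP1, NQO1, GCLC, GCLM, TXN, TXNRD1, SRXN1, SLC7A11 and ME1, were listed by name for their place in the pathway, with earlier results of these data known, and were matched by gene symbol. They are 10 of the 27942 genes in the expression table. MCF10A is a non-tumorigenic human mammary epithelial line, grown here on fibronectin-coated polyacrylamide gels for 24 h. The 5 groups were cells on 400 Pa gels in 25 mM glucose, and cells in 5 mM glucose on gels of 400 Pa, 1 kPa, 6 kPa and 60 kPa. All groups had the same unmodified cells, in a medium with horse serum, epidermal growth factor, insulin, hydrocortisone and cholera toxin. Each group had 2 libraries of messenger RNA, which the labels call biological replicates, each from 4 pooled gel cultures of this 1 cell line. The study set soft gels against stiff gels, and low against high glucose on the soft gel.

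NRF2 is a transcription factor of the basic leucine zipper family that pairs with small MAF proteins on antioxidant response elements, and its targets make glutathione, keep thioredoxin reduced and supply NADPH. KEAP1 is the adaptor that hands NRF2 to the CUL3 ubiquitin ligase, and oxidised or alkylated cysteines of KEAP1 let NRF2 escape degradation. NRF2 is thus set largely by protein turnover, which messenger RNA does not measure, so the targets are the usual readout of the pathway in epithelial cells.

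The element itself is shown for the members whose promoters hold it, because it is the DNA sequence through which NRF2 is known to act. Windows from 250 bases before to 50 bases after the annotated start (RefSeq, GRCh38.p14) were searched on both strands for the core TGACNNNGC, and 9 of the 10 members had a window. The core was found for 4 of them, GCLM, ME1, TXNRD1 and KEAP1, and 16.1% of all 27305 genes with a window held it (13.3% of 35116 windows). Of the 12 windows of members 5 held it, and the other annotated start of KEAP1 had no match. Capitals mark the core, or its reverse complement, in each stretch, written 5′ to 3′ along the gene's strand and ending no later than the base before the start.
GCLM (chr1:93909431-93909494, minus strand): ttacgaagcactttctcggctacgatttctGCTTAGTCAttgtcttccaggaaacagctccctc
ME1 (chr6:83431150-83431218, minus strand): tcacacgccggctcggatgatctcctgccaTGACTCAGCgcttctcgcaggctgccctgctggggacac
TXNRD1, first start (chr12:104215650-104215718, plus strand): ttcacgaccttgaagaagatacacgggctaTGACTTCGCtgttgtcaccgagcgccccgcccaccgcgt
TXNRD1, other start (chr12:104286900-104286968, plus strand): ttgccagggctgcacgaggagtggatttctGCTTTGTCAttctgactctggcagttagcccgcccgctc
KEAP1 (chr19:10502772-10502855, minus strand): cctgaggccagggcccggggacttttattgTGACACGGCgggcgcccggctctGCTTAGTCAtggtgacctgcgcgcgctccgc
NQO1, with no match in its window (chr16:69726561-69726660, minus strand): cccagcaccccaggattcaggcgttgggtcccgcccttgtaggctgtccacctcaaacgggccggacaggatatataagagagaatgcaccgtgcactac
The stretch of NQO1 is the last 100 bases before its start and is shown because NQO1 had the lowest adjusted p of the members on 60 kPa gels, with and without GC correction. A match describes the letters only, and the absence of one says nothing about elements outside the window.

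The libraries held 2.98 M to 28.6 M mapped reads, and the deepest were those on 400 Pa gels in 5 mM glucose. Below, libraries of a group are told apart as the deeper and the shallower, in that order. All 10 members passed the filter of a mean of at least 0.5 FPKM (reads of a gene per length of its exons and per depth of the library), with means of 10.4 (SLC7A11) to 238 (TXN) FPKM. Their counts ran from 175 to 16788 reads per library. Of the markers, 6 of 6 basal mammary and 4 of 4 pan-epithelial genes had a median above 1 FPKM, as did DCN of 6 fibroblast genes, CSF1R of 5 leukocyte genes and none of 3 endothelial genes. COL1A2 and COL3A1 were at 0 in all 10 libraries, as were 2 of the leukocyte genes. The summed level of the basal markers was 2011 to 2018 FPKM in 25 mM glucose and, in 5 mM glucose, 2897 to 3002 on 400 Pa gels. It was 2781 to 2866 on 1 kPa gels, 2478 to 3056 on 6 kPa gels and 2061 to 2298 on 60 kPa gels. The fibroblast markers summed to 17.8 to 19.3 FPKM in 25 mM glucose and 17.3 to 17.6 on 400 Pa gels in 5 mM glucose. They gave 15.2 to 17.1 on 1 kPa, 12.1 to 12.9 on 6 kPa and 11.9 to 12.2 on 60 kPa gels, nearly all of it DCN. The part of these markers in the results below was not tested.

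The GC content of transcripts tracked how far each library departed from the mean level of a gene. Across 12650 genes, the Spearman correlation between that departure and GC content was -0.65 and -0.66 in 25 mM glucose. In 5 mM glucose it was 0.61 and 0.66 on 400 Pa gels, 0.62 and 0.60 on 1 kPa gels and -0.57 and -0.60 on 60 kPa gels. On 6 kPa gels the deeper library had 0.62 and the shallower -0.31, which stood apart from its replicate. Genes are not independent replicates, and these values are a description. The Spearman correlation between GC content and the fold change was -0.72 on 60 kPa over 400 Pa gels, -0.78 in 25 mM over 5 mM glucose and -0.34 on 6 kPa over 400 Pa gels, and in the first pair the GC trend and the group cannot be told apart. It was 0.12 for 60 kPa gels over 25 mM glucose and -0.02 on 1 kPa over 400 Pa gels, whose libraries had the same trend. The members' fold changes are given without and with a correction that removes a smooth GC curve from each library. Of the members, 8 of 10 lay below the median transcript GC of 49.3%, from SLC7A11 at 35.4% to KEAP1 at 60.8%. For the deeper 1 kPa library the file header names a source folder that holds the word "mystery" and mentions no gel, so its group rests on the column heading alone.

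Changes are limma log2 fold changes of FPKM + 1 with their standard error, fitted on all genes tested, with p-values adjusted over those genes by the Benjamini-Hochberg method. A gene counts as called where the adjusted p is under 0.05. Because of the added 1 FPKM, the fold changes understate those of low genes.

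NFE2L2, on the minus strand of chromosome 2 (chr2:178095031-178129859 in hg19, as for all gene positions below, transcript NM_006164), was the regulator with the higher message in high glucose. It measured 36.3 and 39.5 FPKM in 25 mM glucose, against 22.1 and 22.3 FPKM in 5 mM glucose on the same 400 Pa gels. On stiffer gels in 5 mM glucose it measured 24.7 and 23.6 FPKM at 1 kPa, 22.8 and 25.1 FPKM at 6 kPa and 30.0 and 26.1 FPKM at 60 kPa. All 8 other libraries lay above both soft-gel libraries in 5 mM glucose, a pattern noticed after the values were seen and shared by 7.01% of the genes tested. It holds on the deposited scale, and with TMM factors (a rescaling of the libraries) the deeper 6 kPa library lay between the soft-gel ones. In order of the means the groups ran 25 mM glucose, 60 kPa, 1 kPa, 6 kPa and 400 Pa, and the libraries of 1 kPa and 6 kPa overlapped. NFE2L2 rose in 25 mM glucose by 0.75 ± 0.11 (adjusted p = 0.00669), and after GC correction by 0.51 ± 0.07 (adjusted p = 0.0103). On 60 kPa gels its change was 0.33 ± 0.11 (adjusted p = 0.0585), and 0.15 ± 0.07 after correction (adjusted p = 0.223), neither past the test.

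KEAP1 (chr19:10596796-10613481, minus strand, NM_012289) showed the opposite order of levels. It measured 25.3 and 23.8 FPKM in 25 mM glucose, against 33.1 and 35.6 FPKM in 5 mM glucose on 400 Pa gels. The stiffer gels gave 31.0 and 30.6 FPKM at 1 kPa, 34.9 and 27.4 FPKM at 6 kPa and 28.9 and 26.3 FPKM at 60 kPa. The 6 kPa libraries overlapped those of 400 Pa and of 1 kPa. Apart from the deeper 6 kPa library, every library lay below both soft-gel libraries in 5 mM glucose, a pattern not counted over all genes. KEAP1 fell in 25 mM glucose by 0.47 ± 0.12 (log2 fold change -0.47, adjusted p = 0.0269). It is the most GC-rich member, and after correction the change was -0.14 ± 0.06 (adjusted p = 0.184). On 60 kPa gels the change was -0.31 ± 0.12 (adjusted p = 0.109) and, corrected, -0.01 ± 0.06 (adjusted p = 0.96), and the GC curve itself stood at -0.30 there.

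**Figure D1:**
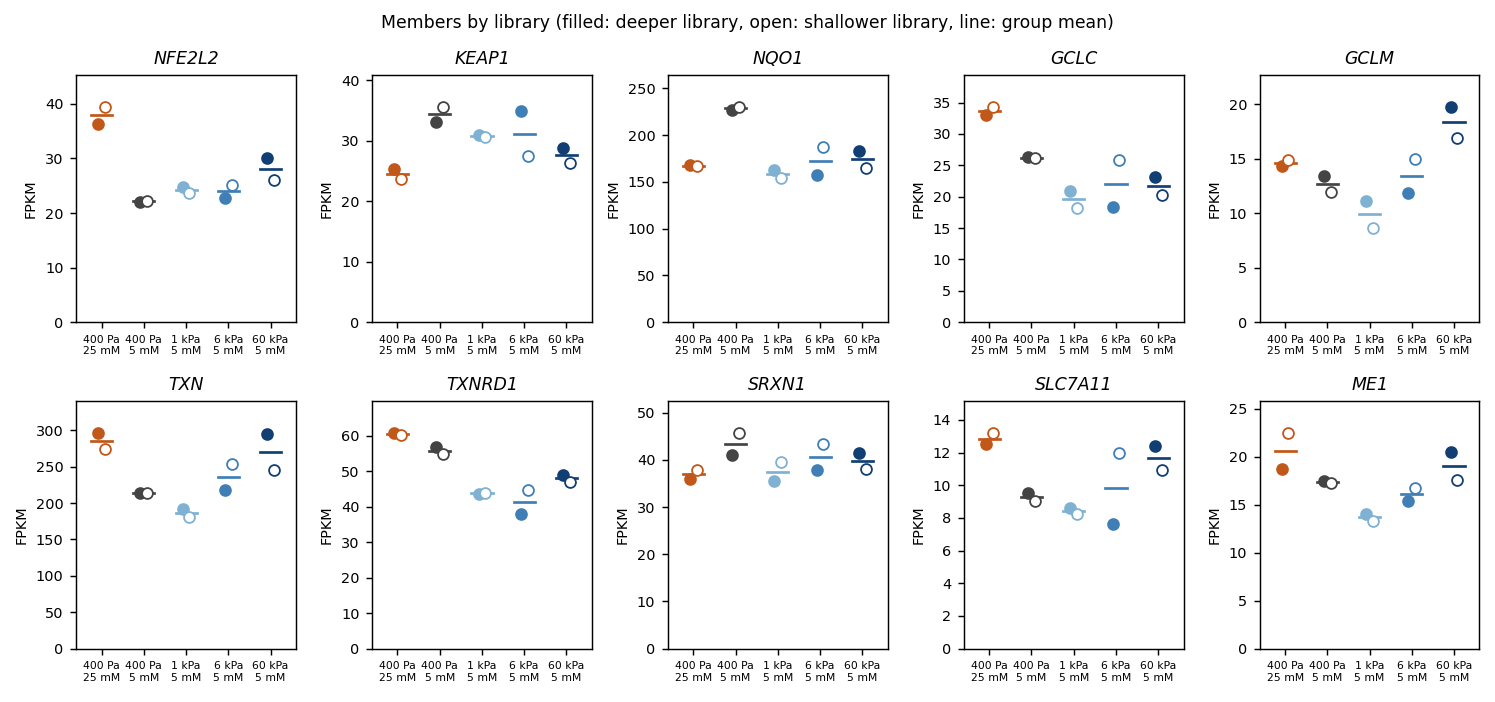
FPKM of each of the 10 genes in each library, by gel and glucose, with filled points for the deeper library, open points for the shallower and a line at the group mean (n = 2). NQO1 lies at 155 to 187 FPKM in 8 libraries, against 227 and 230.2 FPKM on 400 Pa gels in 5 mM glucose, and NFE2L2 is highest in 25 mM glucose at 36.3 and 39.5 FPKM.

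NQO1 encodes the quinone reductase that carries electrons from NAD(P)H to quinones and is the most used marker of NRF2 activity. It was counted on NM_000903 (chr16:69743304-69760533, minus strand), and it was highest in cells on soft gels in 5 mM glucose. In 25 mM glucose it measured 168 and 167 FPKM, against 227 and 230.2 FPKM in 5 mM glucose on the same gels. The stiffer gels gave 163 and 155 FPKM at 1 kPa, 157 and 187 FPKM at 6 kPa and 183 and 165 FPKM at 60 kPa. All 8 of these other libraries lay below both soft-gel libraries, as did those of 3.88% of the genes tested, again a pattern noticed after the values were seen. Among the other groups the libraries of 6 kPa overlapped those of 1 kPa, 60 kPa and 25 mM glucose, and those of 60 kPa overlapped those of 25 mM glucose.

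NQO1 fell in both main comparisons, with the correction and without it. The mean was 174 ± 12.8 FPKM on 60 kPa gels and 229 ± 2.15 FPKM on 400 Pa gels (SD, n = 2 each), a change of -0.39 ± 0.10 (adjusted p = 0.0259), or 23.8% less. In 25 mM glucose it was 167 ± 0.546 FPKM, against the same 229 ± 2.15 FPKM, a change of -0.45 ± 0.10 (adjusted p = 0.0157), or 26.8% less. After GC correction the changes were -0.55 ± 0.05 (adjusted p = 0.000697) and -0.66 ± 0.05 (adjusted p = 0.00158). On 1 kPa gels the change was -0.53 ± 0.10 and missed the test (adjusted p = 0.602), and the corrected -0.49 ± 0.05 passed it (adjusted p = 0.0242). On 6 kPa gels the values were -0.41 ± 0.10 (adjusted p = 0.149) and, corrected, -0.42 ± 0.05 (adjusted p = 0.0079). The 4 comparisons share the soft-gel libraries in 5 mM glucose, so they are not independent of one another. In RNA from whole cultures, fewer cells with the message and less message per cell cannot be told apart.

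**Figure D2:**
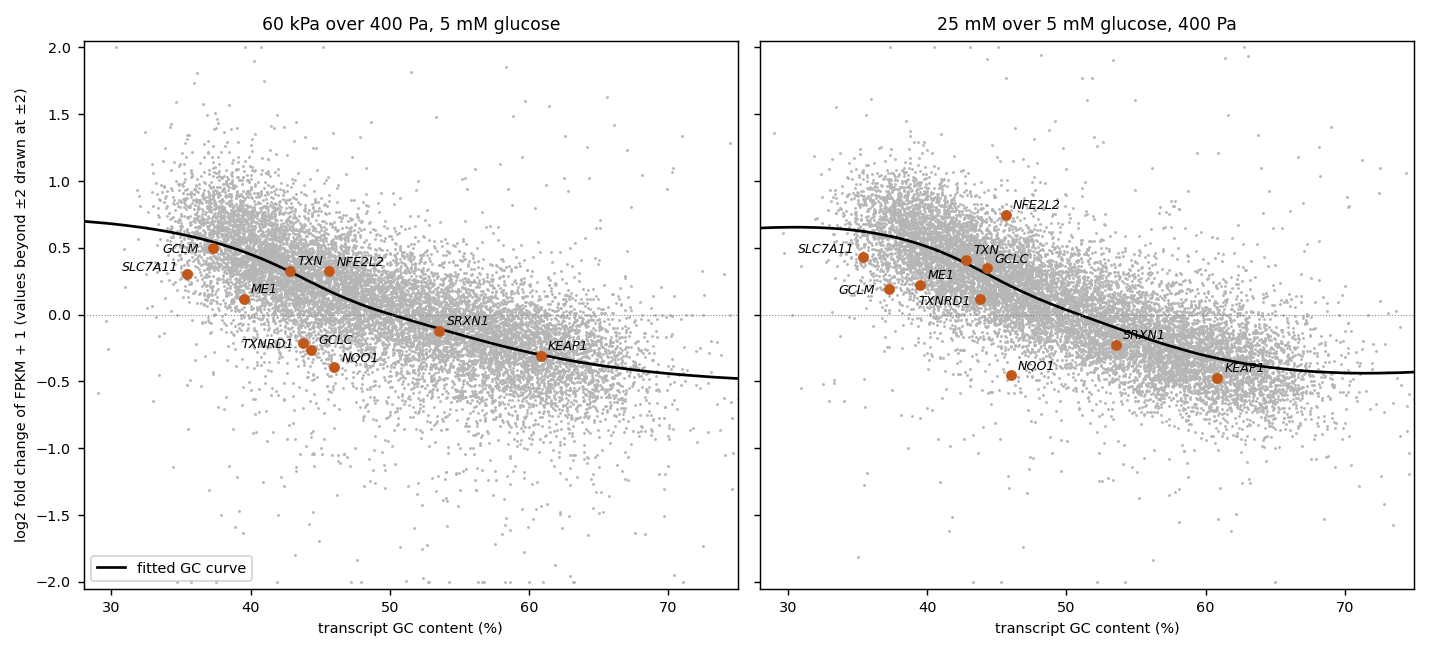
Log2 fold change of FPKM + 1 against transcript GC content (%) for the genes tested, on 60 kPa over 400 Pa gels (left) and in 25 mM over 5 mM glucose (right), with the 10 genes in orange and the fitted GC curve in black. NQO1, at 46.0% GC, lies below the curve in both panels, KEAP1 and TXN lie near it, and NFE2L2 lies above it in 25 mM glucose.

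Glutathione synthesis begins with glutamate-cysteine ligase, whose catalytic subunit is GCLC and whose modifier subunit is GCLM, and SLC7A11 is the cystine carrier of system xc- that brings in the cysteine. GCLC (chr6:53362140-53409927, minus strand, NM_001498) measured 33.0 and 34.3 FPKM in 25 mM glucose, against 26.3 and 26.1 FPKM in 5 mM glucose on 400 Pa gels. On stiffer gels it was below the soft gel, with 20.9 and 18.3 FPKM at 1 kPa, 18.4 and 25.8 FPKM at 6 kPa and 23.2 and 20.3 FPKM at 60 kPa. The libraries of 1, 6 and 60 kPa overlapped one another, and all 6 lay below both soft-gel libraries. How common that is over all genes was not counted. For single gels, both libraries lay below in 26.3% (1 kPa), 18.2% (6 kPa) and 29.4% (60 kPa) of the genes tested. Without correction its changes were 0.35 ± 0.15 in 25 mM glucose (adjusted p = 0.127) and -0.26 ± 0.15 on 60 kPa gels (adjusted p = 0.251). After correction the change in 25 mM glucose was 0.04 ± 0.10 (adjusted p = 0.846), and on 60 kPa gels GCLC fell by 0.51 ± 0.10 (log2 fold change -0.51, adjusted p = 0.0151).

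GCLM (chr1:94350756-94375154, minus strand, NM_002061) was ordered differently from its partner. It measured 14.4 and 14.9 FPKM in 25 mM glucose, against 13.4 and 11.9 FPKM in 5 mM glucose. On stiffer gels it measured 11.1 and 8.65 FPKM at 1 kPa, 11.9 and 15.0 FPKM at 6 kPa and 19.8 and 16.9 FPKM at 60 kPa. The 60 kPa libraries were above those of every other group. The change at 60 kPa was 0.50 ± 0.16 and just missed the test (adjusted p = 0.0501), and it was -0.05 ± 0.10 after correction (adjusted p = 0.822). With a GC content of 37.3%, GCLM lay where the curve for 60 kPa over 400 Pa itself stood at 0.54. In 25 mM glucose the change was 0.19 ± 0.16 (adjusted p = 0.374) and, corrected, -0.39 ± 0.10 (adjusted p = 0.0587).

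SLC7A11 (chr4:139085248-139163503, minus strand, NM_014331), the most AT-rich member, was higher in high glucose and on the stiffest gel before correction, without passing the test. It measured 12.5 and 13.2 FPKM in 25 mM glucose, against 9.50 and 9.02 FPKM in 5 mM glucose. The 1 kPa libraries were at 8.63 and 8.23 FPKM, those of 6 kPa at 7.63 and 12.0 FPKM and those of 60 kPa at 12.4 and 10.9 FPKM. The 6 kPa libraries spanned both soft-gel values, and those of 60 kPa and 25 mM glucose lay above them. The changes were 0.43 ± 0.18 in 25 mM glucose (adjusted p = 0.101) and 0.30 ± 0.18 on 60 kPa gels (adjusted p = 0.248). Their signs turned after correction, at -0.19 ± 0.10 (adjusted p = 0.322) and -0.29 ± 0.10 (adjusted p = 0.114).

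In the thioredoxin arm, TXN is the small dithiol protein that reduces protein disulfides, TXNRD1 is the cytosolic selenoenzyme that recharges it with NADPH, and SRXN1 restores overoxidised peroxiredoxins. TXN (chr9:113006092-113018920, minus strand, NM_003329) measured 296 and 274 FPKM in 25 mM glucose, against 214 and 214 FPKM in 5 mM glucose. The stiffer gels gave 192 and 181 FPKM at 1 kPa, 218 and 254 FPKM at 6 kPa and 295 and 245 FPKM at 60 kPa. On this scale the 1 kPa libraries lay below those of the 400 Pa gel and the others above them. With TMM factors the deeper 6 kPa library lay between the 400 Pa ones. TXN rose in 25 mM glucose by 0.41 ± 0.11 (adjusted p = 0.0289), and the corrected change was 0.03 ± 0.07 (adjusted p = 0.852). On 60 kPa gels the change was 0.33 ± 0.11 (adjusted p = 0.0659) and, corrected, 0.01 ± 0.07 (adjusted p = 0.971).

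TXNRD1 (chr12:104609557-104744085, plus strand, NM_001093771) was ordered differently from TXN. It measured 60.7 and 60.1 FPKM in 25 mM glucose, against 56.7 and 54.8 FPKM in 5 mM glucose. All 6 libraries of stiffer gels lay below the soft-gel ones, at 43.6 and 43.9 FPKM on 1 kPa, 37.9 and 44.8 FPKM on 6 kPa and 49.0 and 47.0 FPKM on 60 kPa gels. How many of all genes had all 6 below was not counted. Uncorrected, the changes were -0.34 ± 0.10 at 1 kPa, -0.43 ± 0.10 at 6 kPa and -0.21 ± 0.10 at 60 kPa, with adjusted p-values of 0.80, 0.129 and 0.157. After correction TXNRD1 fell on 60 kPa gels (-0.48 ± 0.05, adjusted p = 0.00153) and on 6 kPa gels (-0.49 ± 0.05, adjusted p = 0.00457), and the change on 1 kPa gels was -0.33 ± 0.05 (adjusted p = 0.0989). The change in 25 mM glucose was 0.11 ± 0.10 (adjusted p = 0.415), -0.04 with TMM centring and, corrected, -0.22 ± 0.05 (adjusted p = 0.0559).

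SRXN1 and ME1 passed the limma test on FPKM + 1 in none of the comparisons, with or without GC correction. SRXN1 (chr20:627268-634014, minus strand, NM_080725) measured 36.0 and 37.9 FPKM in 25 mM glucose, against 41.1 and 45.7 FPKM in 5 mM glucose, with 35.5 to 43.5 FPKM on the stiffer gels, where its libraries overlapped. Its changes were -0.22 ± 0.11 in 25 mM glucose (adjusted p = 0.165) and -0.12 ± 0.11 on 60 kPa gels (adjusted p = 0.468), with -0.13 ± 0.10 and -0.02 ± 0.10 after correction. ME1, malic enzyme of the cytosol, makes NADPH from malate. It was counted on NM_002395 (chr6:83920110-84140938, minus strand) and measured 18.7 and 22.5 FPKM in 25 mM glucose, against 17.5 and 17.3 FPKM in 5 mM glucose. On stiffer gels ME1 was at 14.0 and 13.4 FPKM at 1 kPa, 15.4 and 16.8 FPKM at 6 kPa and 20.5 and 17.5 FPKM at 60 kPa. On the deposited scale the 1 kPa and 6 kPa libraries lay below both soft-gel libraries and those of 60 kPa and 25 mM glucose above them. Its change on 60 kPa gels was 0.12 ± 0.12 (adjusted p = 0.521), 0.00 with TMM centring and, corrected, -0.35 ± 0.10 (adjusted p = 0.0689). The change of ME1 in 25 mM glucose was 0.22 ± 0.12 (adjusted p = 0.204) and, corrected, -0.30 ± 0.10 (adjusted p = 0.134).

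**Figure D3:**
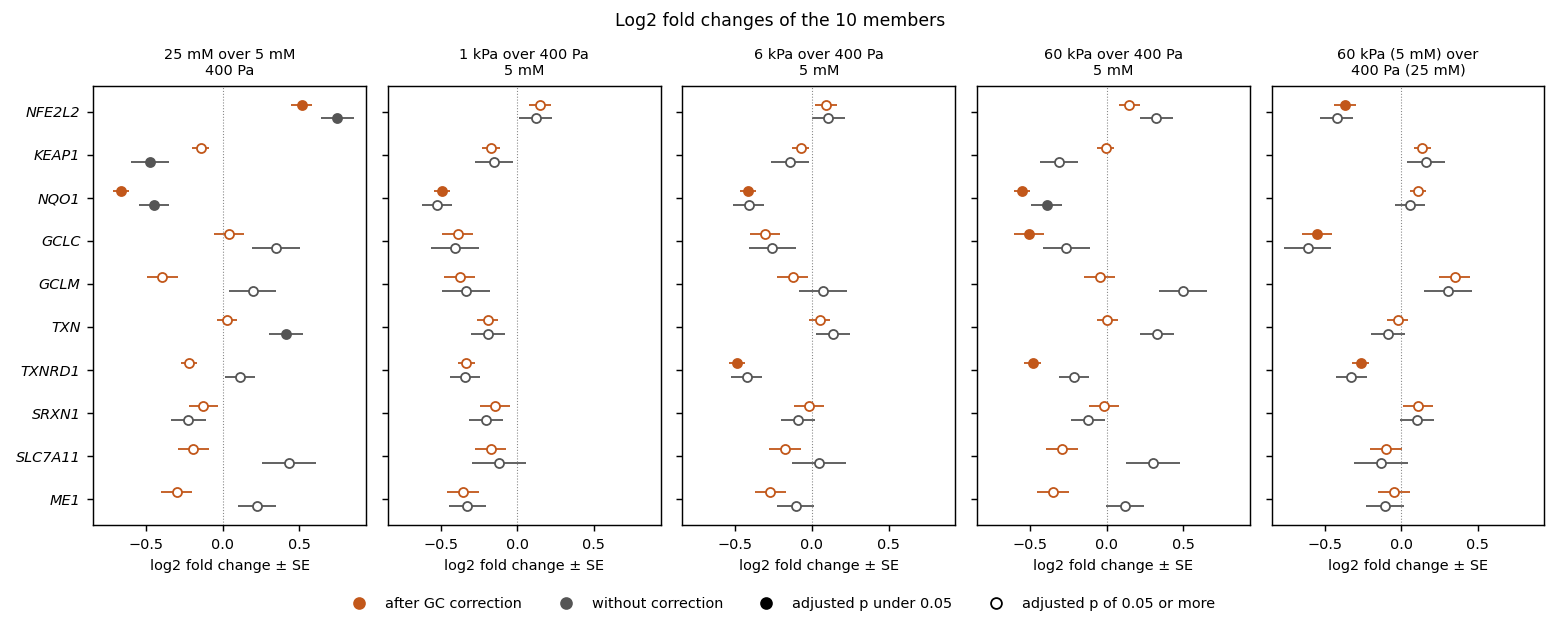
Log2 fold changes ± SE of the 10 genes in 5 comparisons, in orange after GC correction and in grey without it, filled where the adjusted p is under 0.05. After correction NQO1 is filled and lower in all 4 comparisons with the 400 Pa gel at 5 mM glucose, and NFE2L2 is filled and higher in 25 mM glucose at 0.51.

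How many members were called in the stiffness comparison depended on the fit. On 60 kPa against 400 Pa gels, 1 of 10 fell (NQO1) and 0 rose, where limma called 21.2% of 12820 genes (15.1% rose and 6.15% fell). After correction 3 of 10 fell (NQO1, GCLC and TXNRD1) and 0 rose, where 10% of 12650 genes were called (5.64% rose and 4.4% fell). By level alone, 5 members had both 60 kPa libraries above the soft-gel ones and 4 had both below, beside 41.3% and 29.4% of all genes, and those of SRXN1 overlapped. The median change of the members was 0.00 uncorrected and -0.17 corrected, beside 0.06 and 0.02 over all genes tested. When the libraries were centred with TMM factors the calls over all genes split into 1433 rises and 1428 falls, and KEAP1, NQO1 and TXNRD1 fell (11.1% of genes fell). Limma-voom on recovered reads called 7 members at 60 kPa, of which GCLM and TXN rose, where 39.6% of all genes were called. Of the members, 7 had an adjusted p under 0.05 at 60 kPa in the authors' deposited table. KEAP1, NQO1, GCLC and TXNRD1 were lower there and GCLM, TXN and SLC7A11 higher. How many of all genes passed in that table was not counted, and limma on the deposited log2 values called 6589 of 12720 genes. The log2 fold change of NQO1 was -0.48 in the authors' deposited table (adjusted p = 2.52e-24), and that of NFE2L2 was 0.25 (adjusted p = 0.0528).
Leaving out either library of either group ended the uncorrected call of NQO1 (adjusted p = 0.057 to 0.166) and the corrected call of GCLC (0.051 to 0.115). The corrected calls of NQO1 (0.00562 to 0.0164) and TXNRD1 (0.0142 to 0.0265) passed in all 4 of these fits.

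In high glucose more members were called without correction than with it. In 25 mM against 5 mM glucose, 2 of 10 rose (NFE2L2 and TXN) and 2 fell (KEAP1 and NQO1), where 24.5% of all genes were called (17.6% rose and 6.84% fell). After correction 1 rose (NFE2L2) and 1 fell (NQO1), where 5.22% were called (2.72% rose and 2.5% fell). In level, 7 members had both 25 mM libraries above the 5 mM ones and 3 had both below, beside 43.9% and 31.1% of all genes. The members' median was 0.21 uncorrected and -0.17 corrected, beside 0.08 and 0.00 over all genes. TMM centring shifted the median of all genes from 0.08 to -0.04, and the calls split into 1595 rises and 2031 falls, and NFE2L2 still rose (0.59) while KEAP1, NQO1 and SRXN1 fell (12.4% of genes rose and 15.8% fell). The authors' deposited table gave 0.66 for NFE2L2, -0.57 for NQO1 and -0.60 for KEAP1, and 7 members had an adjusted p under 0.05 in it. The share of all genes that passed there was not counted, and limma on the deposited log2 values called 7107 of 12826 genes.
Without any 1 of the 4 libraries the corrected call of NFE2L2 was lost (adjusted p = 0.0581 to 0.149), and so were the uncorrected calls of KEAP1, NQO1 and TXN, while that of NFE2L2 passed in the fit without the deeper 25 mM library alone (0.0491 to 0.0881 over the 4 fits). The corrected call of NQO1 passed in each (0.0214 to 0.0450).

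The gels of middle stiffness gave few calls, and the group of the deeper 1 kPa library rests on its column heading alone. On 1 kPa gels 0 members, and 0% of all genes, were called by limma (776 genes had an unadjusted p under 0.05). After correction 1 member, NQO1, fell, where 0.0395% of all genes were called, and that call was lost without any 1 of the 4 libraries (adjusted p = 0.104 to 0.448). With limma-voom on recovered reads NQO1, GCLC and TXNRD1 fell at 1 kPa, where 0.85% of genes fell. In level, 9 of 10 members had both 1 kPa libraries below the soft-gel ones and NFE2L2 had both above, beside 26.3% and 22.8% of all genes. The members' median at 1 kPa was -0.27, beside -0.01 for all genes, and the correction left it at -0.26. Members that missed the test at 1 kPa included GCLC (corrected -0.39 ± 0.10, adjusted p = 0.21), GCLM (-0.38 ± 0.10, adjusted p = 0.222) and ME1 (-0.35 ± 0.10, adjusted p = 0.262).
On 6 kPa gels 0 members were called against 0.351% of all genes, and after correction 2 fell (NQO1 and TXNRD1) against 1.97% called and 1.02% that fell. In level, 2 members had both 6 kPa libraries above the soft-gel ones and 4 had both below, beside 23.2% and 18.2% of all genes. Both corrected calls at 6 kPa were lost without either 400 Pa library and passed without either 6 kPa library, with an adjusted p of 0.00747 to 0.119 for NQO1 and 0.0114 to 0.0885 for TXNRD1 over the 4 fits.
In the uncorrected fit without the shallower 6 kPa library, which stood apart, NQO1 changed by -0.54, and without the deeper one by -0.29.
Over the 8 libraries in 5 mM glucose, GCLM (0.30 ± 0.09 per 10-fold of stiffness, adjusted p = 0.0408) and TXN (0.20 ± 0.06, adjusted p = 0.043) had rising slopes, against 23.3% of all genes called and 16.8% that rose. The slope is that of a straight line. The means were lower at 1 kPa than at 400 Pa, at 9.88 against 12.7 FPKM for GCLM and 187 against 214 FPKM for TXN. Of the 8 fits that each leave out 1 library, the call of GCLM passed in 2 (adjusted p = 0.028 to 0.215) and that of TXN in 1 (0.0337 to 0.231). With TMM centring neither was called (adjusted p = 0.0693 for GCLM and 0.0842 for TXN) and KEAP1 fell (-0.18 ± 0.05, adjusted p = 0.0362). After correction the slopes of GCLM and TXN were 0.04 ± 0.07 and 0.04 ± 0.04 (adjusted p = 0.752 and 0.585). After correction only TXNRD1 was called (-0.19 ± 0.05, adjusted p = 0.0483), against 8.58% of all genes called and 3.47% that fell, and leaving out any 1 library ended it. Over the uncorrected fits that each leave out 1 library, the slope of GCLM ranged between 0.23 and 0.37 and that of TXN between 0.14 and 0.24.

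**Figure D4:**
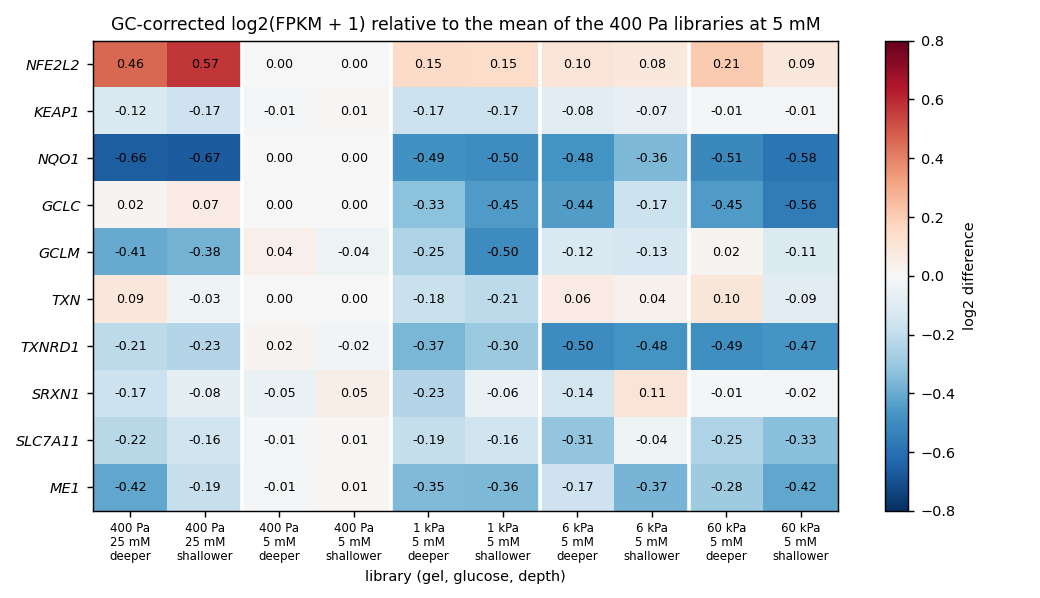
GC-corrected log2(FPKM + 1) of the 10 genes in each of the 10 libraries, as the difference from the mean of the 400 Pa libraries in 5 mM glucose. NQO1 lies at -0.67 to -0.36 in the 8 other libraries, and NFE2L2 at 0.46 and 0.57 in 25 mM glucose.

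Stiff gels and high glucose were also set against each other directly, in a comparison whose fold changes do not use the soft gel at 5 mM. The estimate of the spread, and so the adjusted p, still does. On 60 kPa gels in 5 mM glucose against 400 Pa gels in 25 mM glucose, 0 members were called uncorrected (1.75% of all genes). After correction NFE2L2 (-0.37 ± 0.07, adjusted p = 0.0183), GCLC (-0.55 ± 0.10, adjusted p = 0.014) and TXNRD1 (-0.26 ± 0.05, adjusted p = 0.0243) fell, against 6.96% of all genes called and 3.2% that fell. In level, 3 members had both 60 kPa libraries above those of 25 mM glucose and 4 had both below, beside 23.9% and 24.9% of all genes. NFE2L2 measured 30.0 and 26.1 FPKM on 60 kPa gels and 36.3 and 39.5 FPKM in 25 mM glucose, and the libraries did not overlap. Those of NQO1 overlapped, and its corrected difference was 0.11 ± 0.05 (adjusted p = 0.254). Leaving out any 1 library ended the calls of GCLC and TXNRD1 (adjusted p = 0.0532 to 0.115), and that of NFE2L2 was lost without the shallower 60 kPa library or the shallower 25 mM library (0.0461 to 0.112 over the 4 fits).

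Beyond the 10 members, 39 other NRF2 target and thiol redox genes were measured, and many of them were lower away from the soft gel in 5 mM glucose. On 60 kPa gels 23 of 39 fell and 1 rose, where 6.15% of all genes fell and 15.1% rose, with a median of -0.57 beside 0.06 for all genes. After correction 20 fell and 0 rose, where 4.4% of all genes fell and 5.64% rose (median -0.38 beside 0.02). With TMM centring 28 fell and 0 rose, where 11.1% of all genes fell. High glucose gave 19 falls and 1 rise, where 6.84% of all genes fell and 17.6% rose (median -0.41 beside 0.08). After correction 17 fell and 1 rose there, where 2.5% of all genes fell and 2.72% rose (median -0.34 beside 0.00). The 60 kPa and the glucose counts of the list each rest on all 4 libraries compared, since without any 1 of them far fewer of all genes were called. The list was not followed in those fits.
On 6 kPa gels 8 fell and 0 rose, where 0.296% of all genes fell, and after correction 12 fell and 0 rose, where 1.02% fell. Without either 400 Pa library far fewer of all genes were called at 6 kPa, and the list was not followed in those fits. On 1 kPa gels 0 of 39 passed the limma test, with a median of -0.29 beside -0.01 for all genes, and after correction 4 fell, where 0.0395% of all genes were called. Limma-voom called 13 of 39 at 1 kPa, all of them falls, where 0.85% of all genes fell. These comparisons share their 400 Pa libraries, and the list was chosen with earlier results of these data known.

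Of the 6 most abundant genes of that list, FTH1, GSTP1, FTL and TKT fell on 60 kPa gels with and without correction and MGST1 after it alone. PRDX1, a peroxiredoxin that TXN reduces, did not pass the test, at 487 and 441 FPKM on 60 kPa gels, against 441 and 466 FPKM on 400 Pa gels (0.03 ± 0.12, adjusted p = 0.871, and corrected -0.06 ± 0.08, adjusted p = 0.719). FTH1, the heavy chain of ferritin, measured 854 and 736 FPKM on 60 kPa gels, against 1537 and 1600 FPKM on 400 Pa gels, a corrected change of -0.98 ± 0.07 (adjusted p = 0.000166). FTL, its light chain, measured 301 and 263 FPKM on 60 kPa gels, against 598 and 653 FPKM on 400 Pa gels (corrected -0.96 ± 0.05). Both have near-identical pseudogene copies that could share reads. GSTP1, a glutathione transferase, fell by 0.32 ± 0.04 after correction (log2 fold change -0.32) at 60 kPa, and MGST1, a microsomal glutathione transferase with a GC content of 36.4%, by 0.48 ± 0.08 (log2 fold change -0.48). The deposited level of MGST1 did not fall, at 393 and 367 FPKM on 60 kPa gels, against 353 and 363 FPKM on 400 Pa gels.
TKT, the transketolase of the pentose phosphate pathway, was at 287 and 259 FPKM on 60 kPa gels, against 463 and 493 FPKM on 400 Pa gels (corrected -0.57 ± 0.04, adjusted p = 0.000164). UGDH, which makes UDP-glucuronic acid, rose uncorrected (0.44 ± 0.11, adjusted p = 0.0246) and was at 0.02 ± 0.13 after correction (adjusted p = 0.947).

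In 25 mM glucose FTH1 measured 1190 and 1204 FPKM, against 1537 and 1600 FPKM in 5 mM glucose (corrected -0.42 ± 0.07, adjusted p = 0.0199), and FTL 309 and 311 FPKM in 25 mM glucose, against 598 and 653 FPKM in 5 mM glucose (corrected -0.81 ± 0.05). GSTP1 and MGST1 fell there too after correction (-0.32 ± 0.04 and -0.41 ± 0.08), and TKT fell by 0.46 ± 0.04 (log2 fold change -0.46). MGST1 had 427 and 398 FPKM in 25 mM glucose, against 353 and 363 FPKM in 5 mM glucose, so its fall too stands in the corrected values alone. The rise was that of TXNIP, the thioredoxin-interacting protein that binds reduced TXN and is a classic glucose-responsive gene. It measured 121 and 124 FPKM in 25 mM glucose, against 54.9 and 54.5 FPKM in 5 mM glucose (corrected 0.95 ± 0.07, adjusted p = 0.000945). On 60 kPa gels TXNIP was among the genes that fell.

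**Figure D5:**
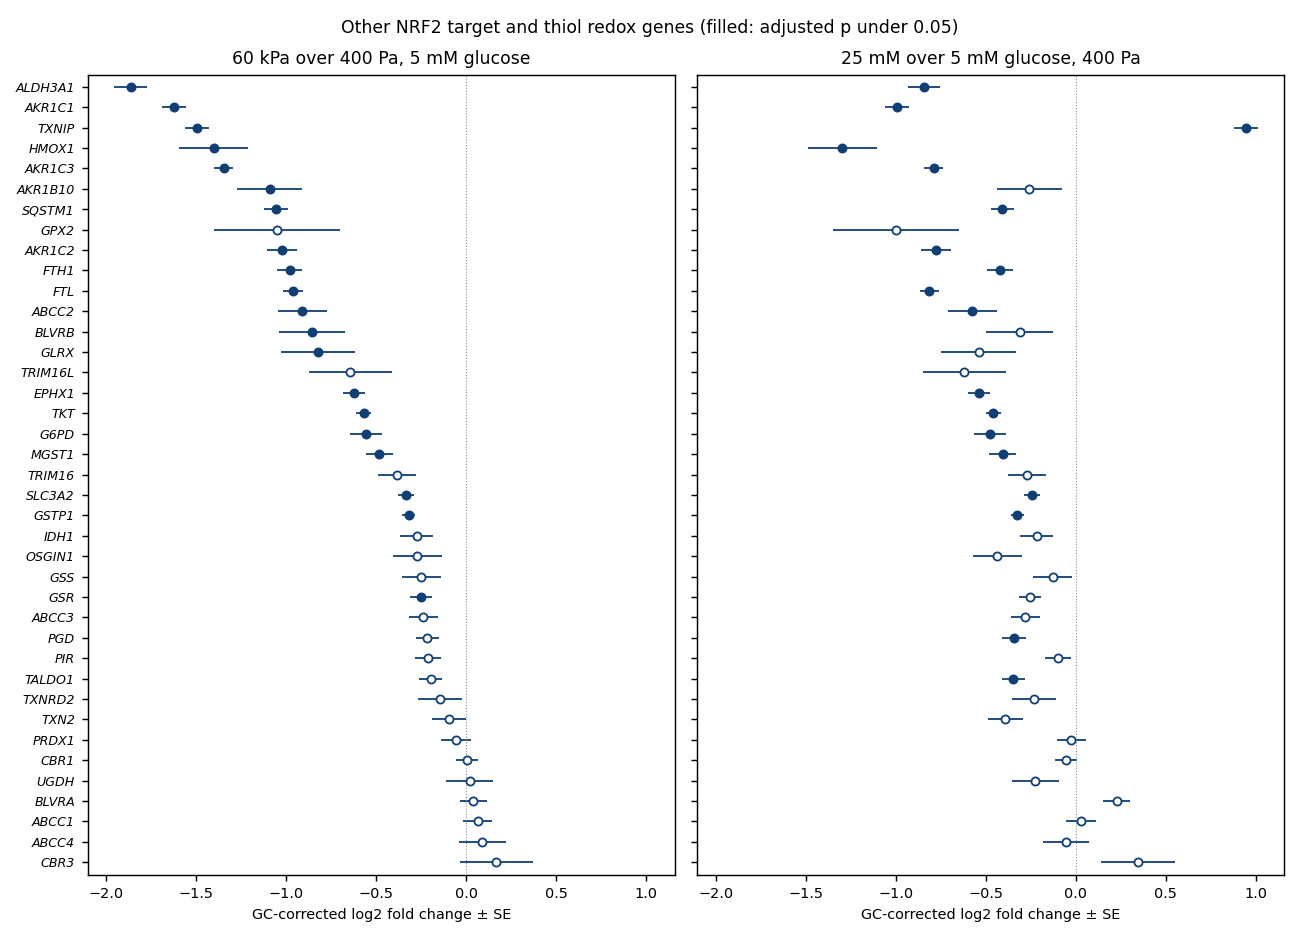
GC-corrected log2 fold changes ± SE of 39 other NRF2 target and thiol redox genes on 60 kPa over 400 Pa gels (left) and in 25 mM over 5 mM glucose (right), filled where the adjusted p is under 0.05. Filled points are on the lower side in both panels (20 and 17), apart from TXNIP in 25 mM glucose at 0.95.

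Of 17 partners and regulators of NRF2 and KEAP1, 5 rose and 3 fell on 60 kPa gels (4 and 4 with TMM centring), where 15.1% of all genes rose and 6.15% fell. After correction 0 rose and 1 fell, where 5.64% of all genes rose and 4.4% fell. Of the rises, the 4 genes with the highest expression were CAND1, which exchanges the adaptors of cullin ligases, the kinase GSK3B, CUL3 and BACH1, with GC contents of 37.9 to 42.1%. CUL3, the scaffold of the ligase that KEAP1 serves, measured 14.0 and 14.1 FPKM on 60 kPa gels, against 7.94 and 8.19 FPKM on 400 Pa gels (0.73 ± 0.16, adjusted p = 0.0144, and corrected 0.20 ± 0.09, adjusted p = 0.208). The fall that passed with and without correction was that of NFE2L1, the NRF2 relative that serves proteasome genes, at 36.6 and 34.3 FPKM on 60 kPa gels, against 50.8 and 53.2 FPKM on 400 Pa gels (corrected -0.39 ± 0.06, adjusted p = 0.00496). DPP3, which binds KEAP1, and MAFF, a small MAF protein, fell uncorrected (-0.54 ± 0.15 and -0.56 ± 0.16).
With high glucose 4 rose and 2 fell (DPP3 and PGAM5, a KEAP1-bound mitochondrial phosphatase), where 17.6% of all genes rose and 6.84% fell (4 and 3 of the list with TMM centring). After correction 2 rose and 0 fell, where 2.72% of all genes rose and 2.5% fell. Those 2 were BACH1, the repressor that competes with NRF2 for its elements (0.46 ± 0.11, adjusted p = 0.0462), and NFE2L1 (0.25 ± 0.06, adjusted p = 0.045), which was at 0.09 ± 0.10 without correction (adjusted p = 0.514). Both calls lie near the threshold and were not followed in the fits that leave out 1 library, where far fewer of all genes were called. BACH1 measured 7.25 and 8.05 FPKM in 25 mM glucose, against 3.44 and 3.14 FPKM in 5 mM glucose.

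The genes most like NFE2L2 and NQO1 were sought by Pearson correlation over the 10 libraries, among genes averaging 5 FPKM or more. Without correction NFE2L2 was most like NACA (r = 0.988), GGNBP2 and UBL3, and after it RAB13 (r = 0.967), GGNBP2 and NACA. NQO1 was most like MYL6 (r = 0.953), PITRM1 and CD63, and after correction CTSA (r = 0.976), GSTP1 (0.951) and GAPDH (0.943). The libraries share their groups and their GC trend, so these values are a description of 10 libraries.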

How the data were processed

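FPKM values of 10 libraries were made by the authors with HOMER's analyzeRepeats.pl from exon tags of 1 transcript per gene, per the file headers, with no strand option. STAR, HOMER, DESeq2 and hg19 were used by the authors, according to their processing notes, where versions are not stated. The log2 values, log2 fold changes and p-values deposited by the authors for 2 comparisons were made with getDiffExpression.pl of HOMER, as their headers show. Columns carry no replicate number. The concentration of 25 mM is from the series' design text, since the sample titles give no concentration.

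The R package limma (version 3.58.1, R 4.3.3), with a trended eBayes prior, modelled log2(FPKM + 1) for the 12820 genes averaging 0.5 FPKM or more, in 1 fit of the 5 groups and their 10 libraries (5 residual degrees of freedom). P-values were adjusted by Benjamini-Hochberg and genes called under 0.05. Tests are two-sided. The GC correction subtracted from each library a natural spline (5 degrees of freedom) of its deviation from the gene means on transcript GC (GENCODE v29), for 12650 genes, 98.7% of those tested, and the fit does not count those degrees of freedom. Whole reads came out of the FPKM values for at least 99.98% of those tested, within 0.12 reads, and were tested with limma-voom as an added alternative. With them, mapped totals of the 1 and 6 kPa libraries were recovered. The variance between replicates was 1.97 to 8.12 times that of Poisson counts, most at 6 kPa. The scripts were tested on simulated data. All 10 members are named. Of the other lists the text names up to 4 members past the test per direction and main comparison, by expression, and any other gene was picked after its values were seen. Members and lists were chosen with earlier results of these data known.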

Additional observations from a re-analysis of the deposited data

How the results depend on the processing

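No paired analysis was possible because the columns carry no replicate number. The planned edgeR and DESeq2 alternatives were not run, since the deposited values are FPKM. GC correction moved the genes called to 1270 at 60 kPa (3 members), 660 in 25 mM glucose (2), 5 at 1 kPa (1), 249 at 6 kPa (2), 881 for 60 kPa against 25 mM (3) and 1085 for the slope (1). Without a filter they were 1809 (0), 2015, 4, 9, 145 and, for the slope, 2078 (0). A mean of at least 5 FPKM gave 2504 (4) of 7702 genes at 60 kPa and 74 genes at 6 kPa. TMM centring gave 2861 (3) at 60 kPa, 99 (2) at 6 kPa and 3017 (1) for the slope. With only the compared groups, counts were 4248 (4) at 60 kPa, 5676 in 25 mM and 0 at 6 kPa. The deposited log2 values gave 6589 (9) and 7107 (7), and with GC correction 5039 (5) and 5302 (7), where SLC7A11 (-0.18) and ME1 (-0.26) at 60 kPa and GCLM (-0.27), TXNRD1 (-0.17) and ME1 (-0.20) in 25 mM turned sign. Limma-voom, chosen after seeing the data, gave 5072 (7), 5866, 200 (3), 376 (2), 785 (3) and, for the slope, 4305 (4). Leaving out 1 library gave 151 to 1083 genes (0 to 1 members) at 60 kPa, 0 to 498 (0 to 1) in 25 mM, 0 to 6 at 1 kPa, 2 to 1777 (0 to 2) at 6 kPa, 32 to 85 for the direct contrast and 811 to 4359 (0 to 5) for the slope, and a lone library was then assumed to vary like the other groups. The 25 mM call count was 0 without either 400 Pa library. The cause of these moves was not tested. A GC curve of 3 degrees of freedom changed no member's call. Of the pseudocounts, 0.1 FPKM changed no uncorrected member count in the 6 comparisons. Precision is limited by 2 libraries a group and, at 6 kPa, by 2.98 M reads.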

Other observations

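The 5 genes that limma called on 1 kPa against 400 Pa gels after GC correction, out of 12650, were NQO1 and 4 of the other 39 targets, and all 5 fell. They are named because they are the whole set, after their values were seen. The group of the deeper 1 kPa library rests on its column heading alone. AKR1C3, an aldo-keto reductase, measured 64.3 and 61.0 FPKM on 1 kPa gels, against 99.1 and 94.5 FPKM on 400 Pa gels (-0.63 ± 0.05, adjusted p = 0.0113). AKR1C1 measured 69.1 and 61.1 FPKM on 1 kPa gels, against 100.1 and 102 FPKM on 400 Pa gels (-0.64 ± 0.07, adjusted p = 0.0242), and AKR1C2 36.1 and 34.5 FPKM on 1 kPa gels, against 59.9 and 62.6 FPKM on 400 Pa gels (-0.77 ± 0.08, adjusted p = 0.0242). The AKR1C genes are near-identical copies, so their reads may be split between them. FTL measured 442 and 424 FPKM on 1 kPa gels, against 598 and 653 FPKM on 400 Pa gels (-0.49 ± 0.05, adjusted p = 0.0242). Without correction 0 genes were called, and among genes averaging 5 FPKM or more the corrected count was 14, of which 11 fell. The corrected count was 0 without either 400 Pa library or without the shallower 1 kPa library, and 9, of which 6 rose, without the deeper 1 kPa library.

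HMOX1, the haem oxygenase, and ALDH3A1, an aldehyde dehydrogenase, were also picked after their values were seen. HMOX1 measured 3.29 and 2.49 FPKM in 25 mM glucose and 10.6 and 10.0 FPKM in 5 mM glucose on 400 Pa gels. It measured 3.52 and 3.62 FPKM on 1 kPa gels, 3.69 and 4.45 FPKM on 6 kPa gels and 2.30 and 3.02 FPKM on 60 kPa gels, so all 8 libraries lay below the soft gel in 5 mM glucose. ALDH3A1 measured 101 and 96.0 FPKM in 25 mM glucose and 207 and 222 FPKM in 5 mM glucose, with 156 and 153 FPKM on 1 kPa gels, 84.0 and 87.6 FPKM on 6 kPa gels and 51.9 and 45.8 FPKM on 60 kPa gels. TXNIP, higher in 25 mM glucose, measured 21.9 and 20.0 FPKM on 60 kPa gels, against 54.9 and 54.5 FPKM on 400 Pa gels in 5 mM glucose (corrected -1.50 ± 0.07, adjusted p = 9.9e-06). Between 60 kPa gels and 25 mM glucose it differed by -2.44 ± 0.07 after correction (adjusted p = 6.06e-07).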
